A study of Mus musculus with 48 samples.

Results

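The genomic loci of 9 hepatocyte genes were examined in accessible-chromatin profiles (ATAC-seq) of a mouse small cell lung cancer model. The genes were Alb, Afp, Fgb, Fga, Apoa1, Apoc3, Ttr, Apoh and Serpina1a, and their 6 windows covered 1240 kb of build mm9. Members were the merged peaks centred in a window, each 501 bp long: 63 of the 114043 peaks in the authors' list. Of these, 14 lay at Fgb/Fga, 7 at Apoa1/Apoc3, 16 at Ttr, 13 at Apoh, 13 at Serpina1a and 0 at Alb/Afp. Peaks are numbered by position along each window, and none was given a gene of its own, because no annotation of mm9 was used here.

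All 48 libraries came from tumors of genotype Trp53-/-;Rb1-/-;p130-/-;R26mG, so every group shares these deletions and the reporter, also the groups used as controls. Tumors were started with an adenovirus carrying Cre, either Ad-CMV-Cre, whose promoter acts in many cell types, or Ad-CGRP-Cre, whose promoter restricts Cre to neuroendocrine cells. The authors' first comparison sets 8 Nfib-amplified CMV libraries (5 liver metastases, 1 lymph node metastasis and 2 lung tumors) against 7 CMV libraries without the amplification, all from lung tumors. The second sets 7 liver metastases against 11 lung tumors, 1 of them Nfib-amplified, all with Ad-CGRP-Cre. A further 15 CMV libraries of low enrichment, 8 of them from liver, entered neither comparison. In the CMV comparison, all 8 amplified libraries and 0 of the other 7 carry the label for a hyperaccessible state. Growth in liver and metastasis occur only among the amplified libraries, though 2 of these are lung tumors. With no value per library, amplification, tissue of growth, metastasis and the hyperaccessible state cannot be told apart. In the CGRP comparison the 7 liver metastases were all prepared in batch 2, whereas the lung tumors came from batches 2 (7 libraries) and 3 (4 libraries). These lung tumors are described as primary tumors. In that comparison, growth in liver against lung and metastasis against primary tumor therefore cannot be told apart. The 8, 7, 7 and 11 libraries carry 2, 3, 3 and 5 different letter-number codes in their titles, and the sources used here do not say whether a code marks a mouse, nor how old the mice were.

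Hepatocytes, the main cells of the liver, secrete most plasma proteins, and the genes of these proteins are kept open and highly transcribed there by liver-enriched transcription factors such as HNF1, HNF4 and FOXA proteins. Alb encodes albumin, the main plasma carrier protein, and Afp its fetal relative. Fgb and Fga encode chains of fibrinogen, the precursor of the fibrin clot. Apoa1 encodes the main protein of high-density lipoprotein, and Apoc3 an inhibitor of triglyceride clearance. Ttr encodes transthyretin, a carrier of thyroxine and of retinol-binding protein. Apoh encodes a plasma protein that binds phospholipids, and Serpina1a a mouse alpha-1 antitrypsin, an inhibitor of neutrophil elastase. Libraries grown in liver can hold host liver cells beside tumor cells. These loci were compared because a hepatocyte keeps the genes of adult plasma proteins open. Afp, the gene of a fetal protein, need not share this. In bulk libraries, more cells of a type and more accessibility per cell cannot be told apart.

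The promoters are shown for the site of HNF1, a liver-enriched factor that acts close to the start of many hepatocyte genes. HNF1 binds a palindrome whose arm is GTTAAT. Of the 7 member genes with a promoter in the RefSeq table (GRCm38.p6, both strands searched), 5 hold this arm in the 120 bases before the gene start. It was found in 984 of 32851 promoters (3.00%) over the same length. A match to a single arm is not a full site. The 5 sequences follow, 5′ to 3′ on the gene's strand, with the arm or its reverse complement ATTAAC in capitals.
Alb, chr5:90460750-90460869, plus strand: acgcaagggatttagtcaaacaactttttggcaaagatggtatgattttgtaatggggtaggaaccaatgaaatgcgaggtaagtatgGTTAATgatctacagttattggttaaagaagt
Afp, chr5:90490594-90490713, plus strand: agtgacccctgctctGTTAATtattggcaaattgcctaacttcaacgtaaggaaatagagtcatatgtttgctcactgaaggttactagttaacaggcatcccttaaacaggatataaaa
Fga, chr3:83026033-83026152, plus strand: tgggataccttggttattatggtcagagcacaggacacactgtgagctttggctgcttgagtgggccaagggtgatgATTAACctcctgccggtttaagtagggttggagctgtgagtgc
Fgb, chr3:83049864-83049983, minus strand: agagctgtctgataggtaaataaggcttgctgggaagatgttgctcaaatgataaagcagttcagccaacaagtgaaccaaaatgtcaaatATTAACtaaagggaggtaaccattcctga
Serpina1a, chr12:103863620-103863739, minus strand: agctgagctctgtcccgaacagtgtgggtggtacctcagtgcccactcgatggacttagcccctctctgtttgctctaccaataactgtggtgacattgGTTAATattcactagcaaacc
The arm begins 32 bases before the start of Alb, 105 before Afp, 43 before Fga, 29 before Fgb and 21 before Serpina1a. The same window of Apoa1 and of Apoh does not hold these letters, which says nothing about the factor, and Apoc3 and Ttr were not searched. These positions belong to GRCm38.p6 and are not comparable with the mm9 positions of the peaks given below.

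The comparison of CGRP liver metastases with primary lung tumors found no called change at the hepatocyte loci. Among the 60 members with an adjusted p in the CGRP comparison, 0 were higher and 0 were lower in liver metastases than in lung tumors (the authors' deposited DESeq2 Wald test, Benjamini-Hochberg adjusted p under 0.05). Over all peaks of the authors' deposited table, 0.0752% were higher and 0.779% lower, so a count of 0 among 60 is what a share near the background would give. At an unadjusted p under 0.05, 1 member (Ttr peak 4) was higher and 3 (Ttr peaks 10 and 13, Apoa1/Apoc3 peak 5) were lower, or 1.59% and 4.76% of members, beside 3.37% and 6.25% of all peaks. The authors' second test, which asks for more than 0.5 on the log2 scale in either direction, called 0 members, and over all peaks 0 higher and 66 lower. The members' log2 fold changes had a median of 0.01 (quartiles -0.33 and 0.21), beside 0.01 over all peaks and 0.02 over the 326 peaks within 500 kb of the windows. Liver metastases had the higher fitted value at 32 of the 63 members. The authors' deposited table gave values between -1.78 at Apoa1/Apoc3 peak 5 and 0.90 at Fgb/Fga peak 13.

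The precision of these values set what could be seen. The median SE of the members was 0.48 on the log2 scale, so a peak of median SE needed a change of about 1.93-fold to reach an unadjusted 95% limit. The upper 95% bound lay under 2-fold for 38 of the 63 members and at or above it for the other 25. Among the 19 members with a mean normalised count of at least 50, a minimum chosen after the values were seen, the bound lay under 2-fold for 16 and reached at most 2.47-fold. Their log2 fold changes ran from -1.06 to 0.69. The most accessible member, Fgb/Fga peak 7 (chr3:82859078-82859578), had a mean normalised count of 295.2 in the authors' deposited table. There, its accessibility in liver metastases was 0.885 times that in lung tumors, with a 95% interval of 0.777 to 1.01. No peak was assigned to a gene, and each window has other genes nearby. A strong peak with little change may thus belong to a neighbouring gene, and need not report on hepatocyte signal.

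In the CMV comparison, single sites of the hepatocyte loci changed in both directions. Of the 63 members, 10 were higher (15.9%) and 7 lower (11.1%) in Nfib-amplified than in not amplified tumors in the authors' deposited table, where 34.3% of all peaks were higher and 12.2% lower. In the flanks of 500 kb on each side, 126 of 326 peaks (38.7%) were higher and 19 (5.83%) lower. The share of higher peaks was thus below that of all peaks and of the flanks. The share of lower peaks was near that of all peaks and above that of the flanks. These shares are a description, with no test between the sets. The median log2 fold change was 0.29 (quartiles -0.28 and 0.88) over the members, 0.88 over the flanks and 0.60 over all peaks. After the 0.60 of all peaks was subtracted from every peak, 6 members were higher and 16 lower, beside 19.9% and 25.6% of all peaks and 20.9% and 17.8% of the flanks. All 6 were among the 10 higher ones, and all 7 lower ones kept their call. The strongest peaks of Fgb/Fga (peak 7), Apoa1/Apoc3 (peak 6) and Apoh (peak 10) were among the 16 lower ones. That of Ttr (peak 2) stayed higher, and that of Serpina1a (peak 11) was not called. Median mean normalised counts were 26.0 at the members, 18.2 in the flanks and 21.2 over all peaks.

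**Figure D1:**
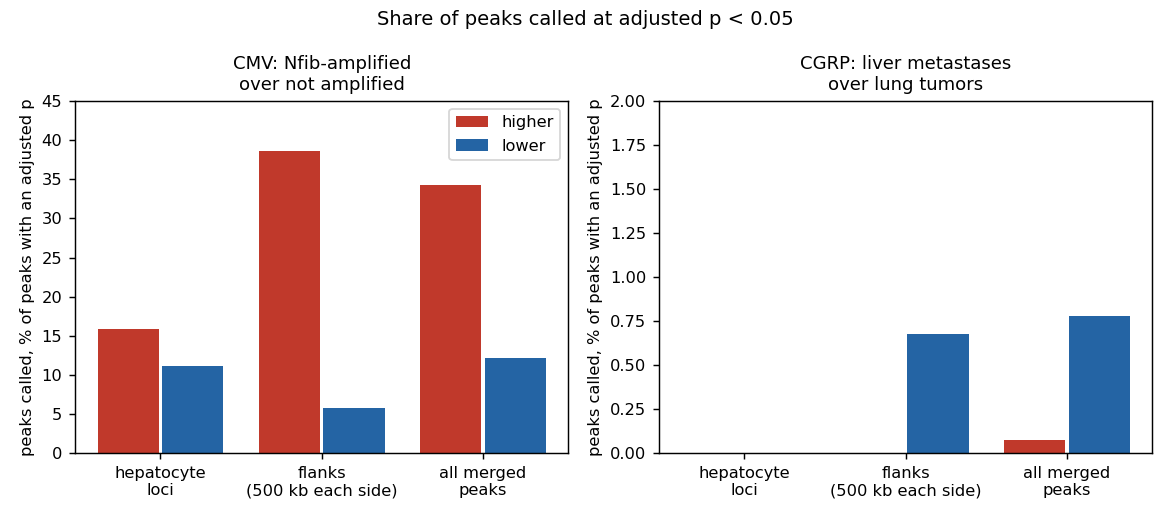
Bars give the percentage of peaks called higher (red) or lower (blue) at the authors' adjusted p under 0.05, for the hepatocyte loci, their flanks and all merged peaks. The left panel plots the CMV comparison, where 15.9% of members were higher, and the right panel, on its own scale, the CGRP comparison, where none was called.

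The 10 higher members had a median log2 fold change of 2.15, a 4.44-fold higher accessibility, and the 7 lower ones a median of -1.93, which is 0.262 times the level without amplification. In the CGRP comparison, the values of the 10 higher members lay between -1.31 and 0.12, and those of the 7 lower members between -1.34 and 0.22. Of the 10, 5 were taken into the merged list from the mixed pool of libraries, 4 from the CMV pool and 1 from the CGRP pool. Of the 7, 5 came from the CGRP pool and 2 from the CMV pool. The part of the peak source in these directions was not tested.

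**Figure D2:**
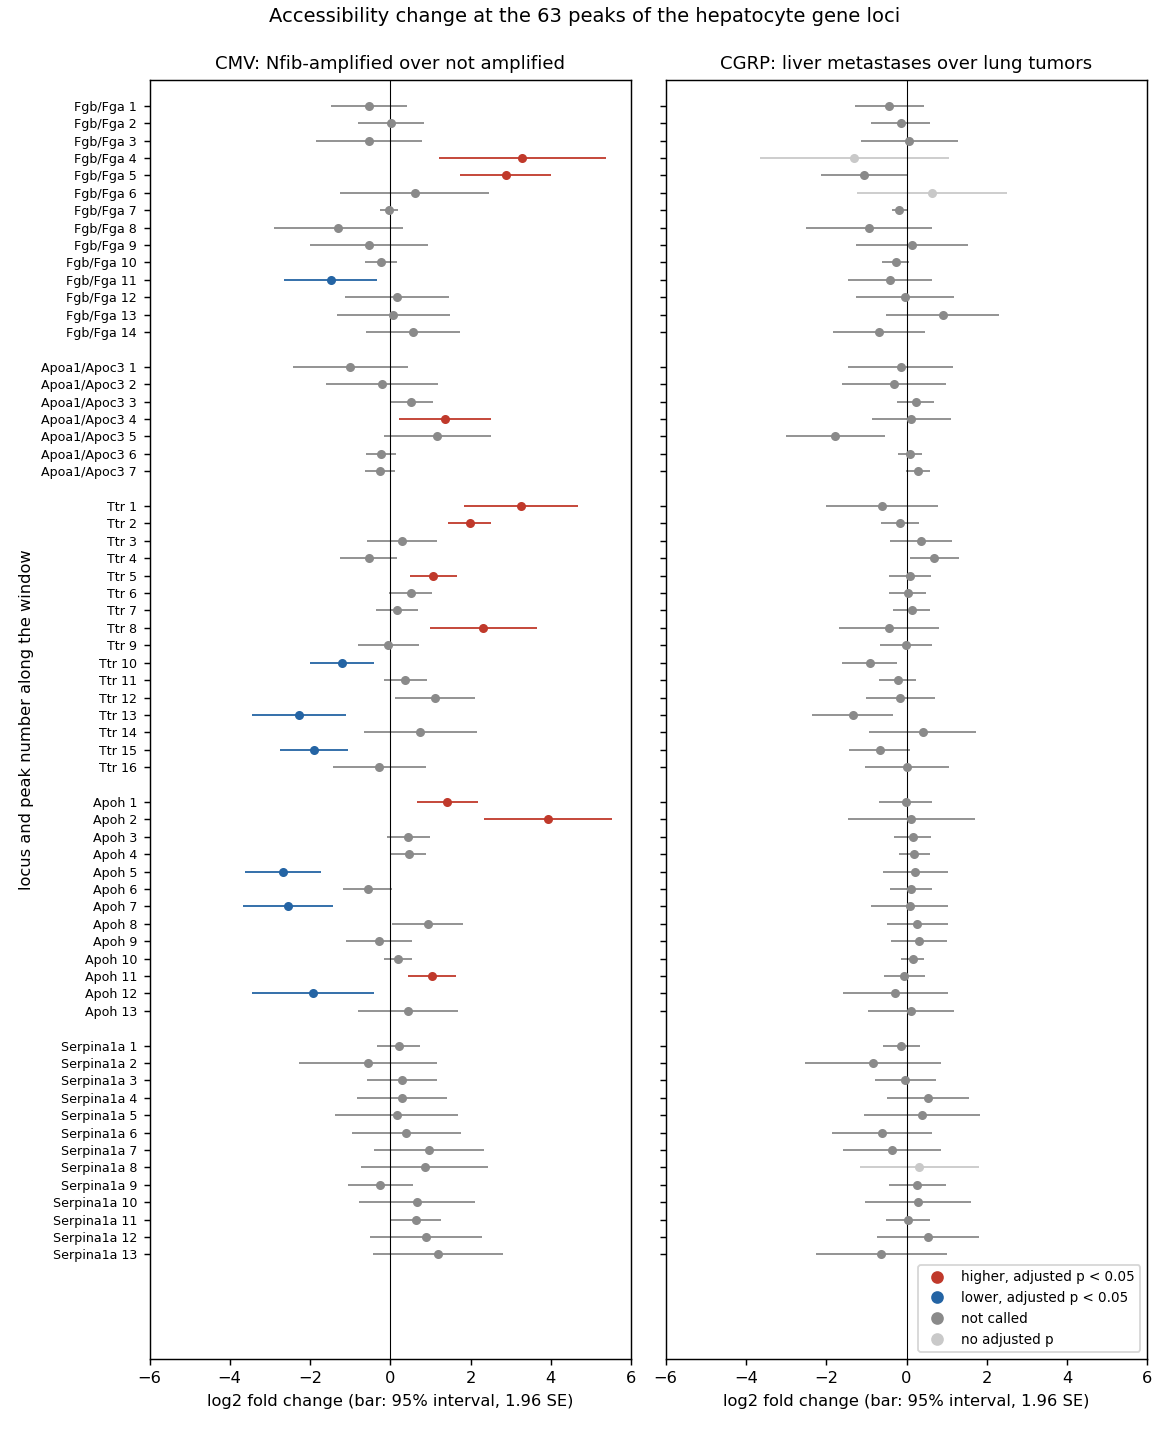
Points give the log2 fold change of each of the 63 peaks in the CMV (left) and CGRP (right) comparison, and bars its 95% interval, with peaks in order along each window. Red and blue points (10 and 7) were called higher or lower in Nfib-amplified tumors, and no point was called in the CGRP comparison.

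At the fibrinogen locus, the RefSeq neighbours of Fgb and Fga are Fgg, the gene of the remaining fibrinogen chain, and Plrg1, Gm10710 and Dchs2. Its peaks were not assigned to any of these genes. Of its 14 members, 2 were higher and 1 lower in Nfib-amplified tumors. Peak 5 (chr3:82824157-82824657), with a mean normalised count of 66.5, was 7.32-fold higher, a log2 fold change of 2.87 (SE 0.58, DESeq2 adjusted p = 1.31e-05) in the authors' deposited table. In CGRP liver metastases the authors' deposited table gave this peak -1.06 (SE 0.55, unadjusted Wald p = 0.055). Peak 4 (chr3:82815027-82815527), 9.13 kb away, was also higher, at 3.29 (SE 1.06) in the authors' deposited table. Its mean normalised count was only 5.11, and it had no adjusted p in the CGRP comparison. Peak 11 (chr3:82902555-82903055) was lower, at -1.48 (SE 0.59) in the authors' deposited table. Peak 7, the strongest, stood at -0.03 (SE 0.12) in the authors' deposited table for the CMV comparison and -0.18 (SE 0.10) in that for the CGRP comparison. The most accessible site of the locus thus had narrow intervals in both comparisons, and the sites called by the authors' test were weaker ones. After the median of all peaks was subtracted, peak 7 was called lower in the CMV comparison. The median over the 14 members was -0.01, against 1.88 over 35 flanking peaks, of which 17 were higher.

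The apolipoprotein locus has Sik3, Apoa4, Apoa5, Zpr1 and Bud13 among its RefSeq neighbours, and its peaks were not assigned to any of these genes. There, 1 of 7 members was higher and 0 were lower in the CMV comparison. That was peak 4 (chr9:46054854-46055354), at a log2 fold change of 1.37 (SE 0.58, DESeq2 adjusted p = 0.043) in the authors' deposited table, with a mean normalised count of 9.50. The strongest, peak 6 (chr9:46080961-46081461), had a mean normalised count of 86.8 and values of -0.24 (SE 0.19) for CMV and 0.10 (SE 0.15) for CGRP in the authors' deposited tables. Peak 5 (chr9:46076255-46076755) had, in the authors' deposited table, the lowest CGRP value of all members, -1.78 (SE 0.63, adjusted p = 0.186). There, its value in the CMV comparison was 1.17 (SE 0.68, adjusted p = 0.145). Neither passed its test. The locus median in the CMV comparison was -0.20, against 0.80 in its flanks, where 16 of 45 peaks were higher and 1 lower.

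The Ttr locus, whose RefSeq neighbours are Dsg2, a gene of a cell adhesion protein of desmosomes, and B4galt6, had 4 of 16 members higher (25%) and 3 lower (18.8%) in Nfib-amplified tumors. In its flanks, 45 of 110 peaks were higher (40.9%) and 5 lower (4.55%), and the medians were 0.33 at the locus and 0.94 in the flanks. Peak 2 (chr18:20768098-20768598), the strongest of the locus with a mean normalised count of 219.5, was 3.95-fold higher, at 1.98 (SE 0.27, DESeq2 adjusted p = 1.38e-10) in the authors' deposited table. In CGRP liver metastases it stood at -0.17 (SE 0.24) in the authors' deposited table, a fold of 0.891 with an interval of 0.641 to 1.24. Peaks 1, 5 and 8 were higher as well, at 3.26 (SE 0.72), 1.07 (SE 0.30) and 2.32 (SE 0.68) in the authors' deposited table. Peaks 10, 13 and 15 were lower, at -1.20 (SE 0.41), -2.27 (SE 0.60) and -1.90 (SE 0.44) in the authors' deposited table. All 4 higher peaks lay before all 3 lower ones along the chromosome, the last at 20829172 and the first at 20869521, an order seen after the values were known. The 3 lower peaks also had values below 0 in the CGRP comparison of the authors' deposited tables, -0.92 (SE 0.35), -1.34 (SE 0.51) and -0.67 (SE 0.39). None of these passed, with adjusted p-values of 0.242, 0.248 and 0.581.

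At the Apoh locus, between Prkca, a protein kinase gene, and Cep112 in the RefSeq annotation, 3 of 13 members were higher (23.1%) and 3 lower (23.1%). In its flanks, 33 of 78 peaks were higher (42.3%) and 5 lower (6.41%), and the medians were 0.43 at the locus and 0.83 in the flanks. Peak 2 (chr11:108196794-108197294) had the highest value of all members, 3.93 (SE 0.81, DESeq2 adjusted p = 2.00e-05), a 15.2-fold difference, at a mean normalised count of 14.7 in the authors' deposited table. Peak 1, 4.75 kb away, and peak 11 were higher by 1.43 (SE 0.38) and 1.04 (SE 0.30) in the authors' deposited table. Peak 5 (chr11:108218540-108219040) had the lowest value of all members, -2.67 (SE 0.48, adjusted p = 1.09e-06), 0.157 times the level without amplification, at a mean normalised count of 78.3 in the authors' deposited table. Peaks 7 and 12 were lower too, at -2.55 (SE 0.58) and -1.93 (SE 0.78) in the authors' deposited table. The strongest, peak 10 (chr11:108286178-108286678, mean normalised count 167.2), stood at 0.19 (SE 0.17) for CMV and 0.15 (SE 0.15) for CGRP in the authors' deposited tables. All 13 CGRP values of the locus lay between -0.27 and 0.31, a narrower range than at the other loci.

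At the Serpina1a locus, Serpina1c, Serpina1d and Serpina1e, near-identical relatives, neighbour the gene. There, 0 of 13 members were called in either direction by the DESeq2 test. At an unadjusted p under 0.05 in the CMV comparison, 1 (peak 11) was higher and 0 lower. By that threshold, 17 of 58 flanking peaks were higher and 8 lower, and of all 113873 tested peaks 44363 were higher and 16479 lower. The locus median in the CMV comparison was 0.40, against 0.47 in the 58 flanking peaks, of which 15 were called higher and 7 lower by the adjusted p. The strongest, peak 11 (chr12:105240863-105241363), had a mean normalised count of 48.3 and values of 0.65 (SE 0.32, adjusted p = 0.079) for CMV and 0.04 (SE 0.28) for CGRP in the authors' deposited tables. The intervals were wide at these sites: the upper 95% bound in the CMV comparison lay at or above 2-fold for 11 of the 13. Reads from near-identical gene copies may be shared or dropped in alignment, and the handling of such reads is not given in the sources read.

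The change in the CMV comparison minus that in the CGRP comparison was tested for each peak by a two-sided z test, since the comparisons share no library. At a Benjamini-Hochberg adjusted p under 0.05 over all peaks, the CMV change was the larger at 9 members and the smaller at 3, or 14.3% and 4.76% of 63, beside 17.8% and 5.62% of all peaks. The 12 together are 19% of members, against 23.4% of all peaks, so the count is no result about the members as a set. The largest differences were 4.60 (SE 1.61) at Fgb/Fga peak 4, 3.93 (SE 0.80) at Fgb/Fga peak 5 and 3.87 (SE 1.02) at Ttr peak 1. The smaller ones were at Apoh peaks 5 and 7, -2.89 (SE 0.64) and -2.62 (SE 0.75), and at Ttr peak 4, -1.23 (SE 0.48). In the authors' deposited tables Ttr peak 4 stood at -0.54 (SE 0.36) in the CMV and 0.69 (SE 0.31) in the CGRP comparison, neither of which passed. Of the 10 members higher in Nfib-amplified tumors, 8 passed this test, and of the 7 lower ones 2 did. The same CMV value enters the call and this test, so these counts are no separate support for the calls. The share among all peaks called in the CMV comparison is not given here. For the 3 lower Ttr peaks the difference did not pass, and its interval was wide, with SEs of 0.54, 0.79 and 0.58. With both comparisons centred on their medians, the counts were 5 and 8, or 7.94% and 12.7% of members, beside 9.12% and 15.9% of all peaks.

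**Figure D3:**
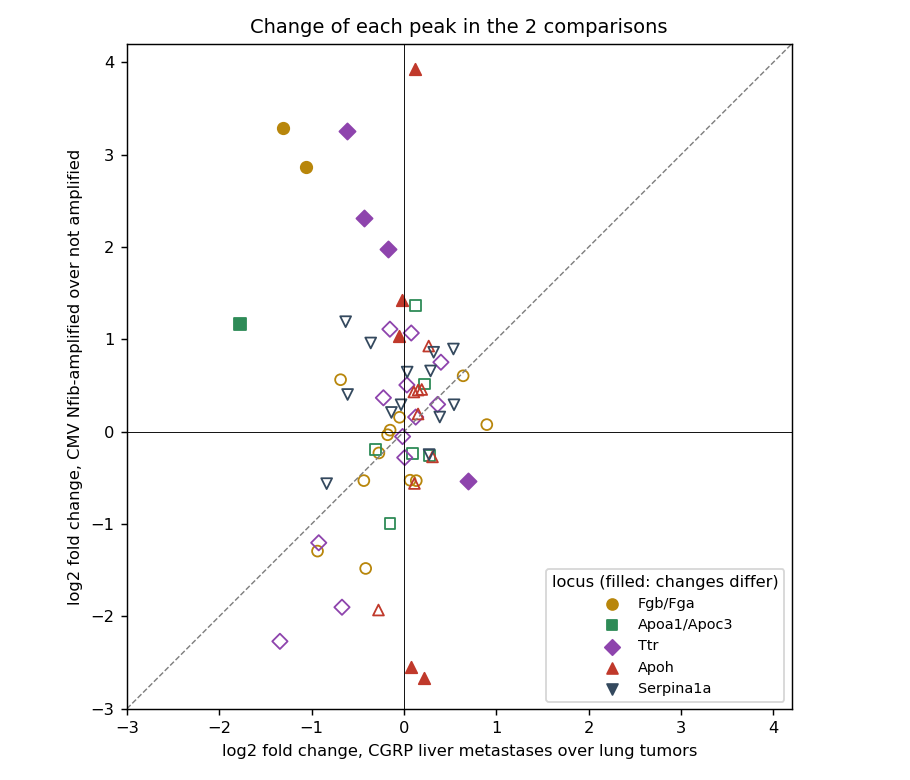
Each point is 1 of the 63 peaks, with its log2 fold change in the CGRP comparison on the x axis and in the CMV comparison on the y axis. Filled points are the 12 whose changes differed by the z test, and the dashed line marks equal change. The CMV values spread from -2.67 to 3.93, and the CGRP values from -1.78 to 0.90.

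Alb and Afp could not be compared between groups, because their window (chr5, 90.8 to 91.0 Mb) holds 0 merged peaks. It lies in a stretch of 6.31 Mb of chromosome 5 with no merged peak, in which the pooled calls nonetheless placed 293 summits of the CMV pool, 286 of the CGRP pool and 325 of the mixed pool. Of these, 43, 39 and 46 rank in the top 10% of their list by score, so the merged list leaves out strong sites here, and the lack of members at Alb/Afp says nothing about accessibility there. Such omission is not particular to this stretch: genome-wide, 23.9%, 25.1% and 26.3% of the top 10% of summits of the CMV, CGRP and mixed pools lie outside every merged peak, and 25 stretches without merged peaks, this one included, are at least as long. The summit lists do cover the window. Each was called on the libraries of 1 preparation batch: the CMV pool on 19 of batch 1, of which 15 are the low-enrichment libraries, the CGRP pool on 14 of batch 2, and the mixed pool on 15 of batch 3, of which 11 are CMV libraries of the groups compared. The CMV pool is thus not the CMV groups of the comparison, and vector, batch and enrichment cannot be told apart between the lists. The lists placed 5 summits of the CMV pool, 7 of the CGRP pool and 5 of the mixed pool in it, or 2.50, 3.50 and 2.50 per 100 kb, beside 9.71, 6.66 and 7.98 per 100 kb over each whole list. The best ranks were the top 22.5%, 51.6% and 46.2%, so 0 of these 17 summits reached the top 10%. No pool had a summit in the 122 kb from chr5:90807976 to 90929944.

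Over all 6 windows, the lists held 104 summits of the CMV pool (8.39 per 100 kb), 96 of the CGRP pool (7.74) and 100 of the mixed pool (8.06). The pools mix tissues, with 10 of 19, 7 of 14 and 3 of 15 libraries from liver, so they do not separate liver from lung. Of the summits in the windows, that of Fgb/Fga peak 7 ranked best in each list, in the top 0.468%, 0.485% and 1.36%. At Ttr and Apoh the best summits ranked in the top 2.01% and 2.00% of the CMV pool, 4.45% and 3.61% of the CGRP pool and 3.38% and 4.11% of the mixed pool. At Serpina1a, 28, 32 and 27 summits were called, and 0 reached the top 10% in any of the lists. A summit of all 3 pools fell in 45 of the 63 members. Every member was itself taken from these lists, so part of this overlap is built in. The share over all merged peaks is not given here, and the count is no trait of these loci.

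**Figure D4:**
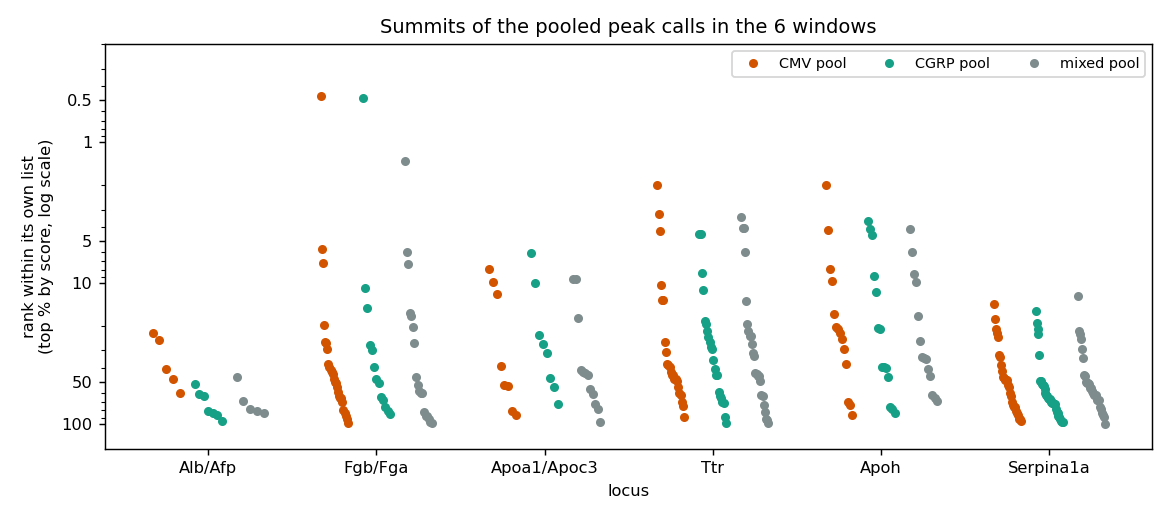
Each point is a summit in 1 of the 6 windows, at its rank within its own list (top percentage by the authors' score, log axis, best rank at the top), for the CMV, CGRP and mixed pools. The best ranked of these summits stands at Fgb/Fga in each list, and the Alb/Afp and Serpina1a windows have none in the top 10%.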

How the data were processed

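ATAC-seq was made from 48 libraries, 33 of which belong to the groups compared. Per the labels' protocols, Tn5-treated lysed cells gave the libraries. The submitters' processing notes name Bowtie2, MACS2, DESeq2 and mm9. Duplicate removal, the Tn5 offset of reads and the filter behind the merged peaks are not given in the sources read. Summits were called on 3 pools of libraries, per the labels, and the deposited score was taken for −log10 q-value because none lies under 1.30; it ranks summits within a list.

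The log2 fold changes, SEs, p-values and adjusted p-values per peak are the authors' values, per the file headers, and the mean normalised count is a deposited signal, the authors' mean over libraries. Table names gave the direction of each comparison. With 0 per-library columns, depth is unknown, and values per sample cannot be given. The label of 1 not amplified CMV library does not list the comparison, and its place in the authors' fit was not determined. An adjusted p was missing for 3 of the 63 members in the CGRP comparison. Whether libraries come from separate animals is not given, so p-values measure the spread between libraries.

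Computed here (Python 3.11.15, pandas 2.3.3, scipy 1.17.1) were peak membership, counts of calls, 95% intervals (1.96 SE), ranks and the z test with Benjamini-Hochberg adjustment, checked on simulated data. Named peaks are the strongest of each locus, every called one and the extremes of each comparison; Ttr peak 4 was named after its values were seen. Members and lists were chosen with earlier results of these data known. Other hepatocyte, Kupffer, bile duct and liver endothelial genes were not analysed here, for want of an mm9 annotation, and RefSeq (GRCm38.p6) gave only neighbours and promoters. Thresholds, centring, a count minimum and window sizes were varied.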

Additional observations from a re-analysis of the deposited data

Results flagged for a closer look

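The change in the CMV comparison differed from that in the CGRP comparison at 12 of the 63 peaks by the z test, given here as CMV minus CGRP on the log2 scale. These are 19% of members, beside 23.4% of all peaks, so they are listed as single sites and not as a property of the loci. At Fgb/Fga the difference was 4.60 at peak 4 and 3.93 at peak 5. At Apoa1/Apoc3 it was 2.95 at peak 5, although neither comparison called that peak. At Ttr it was 3.87 at peak 1, 2.15 at peak 2, -1.23 at peak 4 and 2.75 at peak 8. At Apoh it was 1.44 at peak 1, 3.81 at peak 2, -2.89 at peak 5, -2.62 at peak 7 and 1.09 at peak 11.

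Summits at Alb/Afp stand outside every comparison, since no merged peak covers them: 5 in the CMV pool, 7 in the CGRP pool and 5 in the mixed pool. The part of tissue, vector and library enrichment in these numbers was not tested.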

How the results depend on the processing

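The 17 calls in the CMV comparison (10 higher, 7 lower) became 10 of 63 (6 higher, 4 lower) under the authors' second test. Over all 113873 tested peaks, that test called 21603 higher and 5280 lower. With a mean count of at least 20, 10 of 34 members were called (6 higher, 4 lower). The calls became 11 of 45 peaks (6 higher) with windows narrowed by 25 kb, and 29 of 102 (19 higher) with windows widened by 50 kb. The called share was 24.4% and 28.4% in these windows, against 27.0% of 63, so the counts moved with the number of peaks. Centred on the median of all peaks, they became 6 higher and 16 lower, and the members' median log2 fold change became -0.31. An adjusted p under 0.01 left 14 and one under 0.1 gave 21. The shares of all peaks at these thresholds and at the count minimum are not given here, so these counts are no result about the members. In the CGRP comparison, the 0 calls became 1 (1 lower, at chr18:20712748-20713248 beside Ttr) with widened windows and stayed 0 under the other settings tried. The peaks whose changes differed became 5 higher and 8 lower in CMV after centring. Widened windows held 164, 152 and 162 summits of the CMV, CGRP and mixed pools. The cause was not tested for the second test; the count minimum and the windows change the peaks, centring the zero point and the adjusted p the threshold, by construction. Of 75 values recomputed, 55 moved by less than the spread or stayed within 1.5 times, and 20 did not. No paired analysis was possible because the files give no value per library; for the same reason no library could be left out. Depth is unknown, and low mean counts (quartiles 9.74 and 55.8) widen the intervals.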
